A study of Mus musculus with 28 samples.

Results

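A set of 10 genes that make fatty acids from sugar and acetate, the route called de novo lipogenesis, was followed in livers of male C57BL/6 mice from 2 models of steatohepatitis, in which a fatty liver becomes inflamed and scarred. The genes were chosen by symbol as enzymes and regulators of this route, and they are 10 of the 20416 genes in each of 3 deposited tables. Livers of mice fed a diet deficient in methionine and choline (MCD, 4 livers) were compared with livers of mice on the matched low-fat control diet (CD, 4 livers). The labels name 4 weeks in the titles of these samples and a study duration of 5 weeks in another field. STAM mice, which received streptozotocin, a toxin of insulin-producing beta cells, at postnatal day 2 and high-fat feed from week 4, were compared with mice on control diet when 4 weeks old and when 10 weeks old (5 STAM and 5 control livers at each age). The 4-week STAM livers carry a high-fat label although that feed began in week 4. All groups share sex and strain, and no gene was targeted in either model. The labels do not say that replicates came from separate mice, so the spread behind each p-value may be technical.

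De novo lipogenesis turns acetyl-CoA into palmitate in the cytosol of hepatocytes. Acetyl-CoA is carboxylated to malonyl-CoA and then lengthened by a multi-enzyme protein that consumes NADPH. Insulin drives the route through the transcription factor SREBP-1c, sugar through ChREBP, and oxysterols through the nuclear receptor LXR. Acly (ATP citrate lyase) and Acss2 (cytosolic acetyl-CoA synthetase) supply acetyl-CoA from citrate and from acetate. Acaca and Acacb encode acetyl-CoA carboxylases 1 and 2, of which the first serves synthesis and the second sits at the outer mitochondrial membrane, where its malonyl-CoA restrains fatty acid import. Fasn encodes fatty acid synthase, Me1 the cytosolic malic enzyme that makes NADPH, and Thrsp the protein called Spot 14, a regulator of lipogenesis. Srebf1 encodes SREBP-1, Mlxipl encodes ChREBP, and Nr1h3 encodes LXR alpha. The deposited gene rows do not separate the SREBP-1a and SREBP-1c transcripts or the alpha and beta transcripts of ChREBP.

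On the mm10 build, Srebf1 (chr11:60199089-60220604), Acaca (chr11:84195438-84401651), Acly (chr11:100476352-100528000) and Fasn (chr11:120805958-120824547) share chromosome 11. Acacb (chr5:114165518-114250758) and Mlxipl (chr5:135106891-135138382) lie on chromosome 5, and Nr1h3 (chr2:91184061-91195116) and Acss2 (chr2:155518043-155562743) on chromosome 2. Thrsp is at chr7:97412957-97417510 and Me1 at chr9:86581363-86695914. Exons of Acss2 overlap those of Gss, Ggt7 and Acss2os on the opposite strand, and exons of Srebf1, Mlxipl and Me1 overlap those of Rai1, Gm43500 and A330041J22Rik, also on the opposite strand. Srebf1 shares bases with Mir6922, and Nr1h3 with Gm13783, on the same strand. The kit keeps strand, but the sources used here do not say whether the counting used it, so values of these 5 genes could hold reads of their neighbours.

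Promoter windows of 4 of the genes and of a downstream start of Srebf1 are shown. They were picked because they hold the CCAAT box, so its presence in them is not a result. These are the binding letters of the factor NF-Y, which acts beside SREBP on lipogenic promoters. Windows of Acacb, Me1, Mlxipl and an upstream start of Srebf1 that also hold the box are not shown. In Acly it lies after the transcription start. A link between the box and the levels was not tested. Each window runs from 250 bases before to 50 bases after a transcription start, is written 5′ to 3′ on the gene's strand from RefSeq on GRCm38.p6, and has CCAAT, or its reverse complement ATTGG, in capitals.
Fasn, chr11:120824498-120824797, minus strand: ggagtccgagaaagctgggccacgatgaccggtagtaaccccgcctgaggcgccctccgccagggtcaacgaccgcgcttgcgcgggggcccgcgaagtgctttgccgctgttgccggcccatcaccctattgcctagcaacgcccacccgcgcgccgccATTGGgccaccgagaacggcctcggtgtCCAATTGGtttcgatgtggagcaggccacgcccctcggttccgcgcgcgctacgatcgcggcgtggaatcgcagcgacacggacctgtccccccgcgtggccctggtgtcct
Acly, chr11:100527951-100528250, minus strand: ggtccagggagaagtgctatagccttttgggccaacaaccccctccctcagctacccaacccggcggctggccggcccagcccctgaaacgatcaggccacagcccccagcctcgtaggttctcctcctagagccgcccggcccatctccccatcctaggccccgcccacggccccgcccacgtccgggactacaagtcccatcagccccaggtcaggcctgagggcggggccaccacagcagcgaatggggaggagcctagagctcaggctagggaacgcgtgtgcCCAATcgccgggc
Acss2, chr2:155517793-155518092, plus strand: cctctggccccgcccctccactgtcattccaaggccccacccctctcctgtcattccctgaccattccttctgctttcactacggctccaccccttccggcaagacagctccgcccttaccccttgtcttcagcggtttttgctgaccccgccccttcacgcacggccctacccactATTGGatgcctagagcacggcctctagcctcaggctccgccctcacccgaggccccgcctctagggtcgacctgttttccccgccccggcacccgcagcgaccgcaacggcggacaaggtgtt
Thrsp, chr7:97417501-97417800, minus strand: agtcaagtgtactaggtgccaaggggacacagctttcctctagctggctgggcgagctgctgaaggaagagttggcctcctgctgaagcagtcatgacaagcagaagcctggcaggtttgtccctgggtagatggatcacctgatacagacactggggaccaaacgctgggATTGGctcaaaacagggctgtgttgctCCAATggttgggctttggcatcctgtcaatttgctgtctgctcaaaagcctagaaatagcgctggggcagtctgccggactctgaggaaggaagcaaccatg
Srebf1, chr11:60210422-60210721, minus strand: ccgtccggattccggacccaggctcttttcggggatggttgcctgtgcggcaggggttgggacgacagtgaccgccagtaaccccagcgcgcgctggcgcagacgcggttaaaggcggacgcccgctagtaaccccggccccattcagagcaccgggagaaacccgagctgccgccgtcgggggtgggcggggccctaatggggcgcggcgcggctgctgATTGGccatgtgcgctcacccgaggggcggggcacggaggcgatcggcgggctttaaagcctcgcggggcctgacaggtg

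The letters CCAAT, searched on both strands, were in 9 of the 15 windows of the 10 genes and in at least 1 window of 8 genes. Of 32851 windows of the same length, 37.4% held them. The 2 genes without them in these windows were Acaca and Nr1h3. The E-box CACGTG was in 1 of the 15 windows, at Mlxipl, and in 7.15% of all windows. The sterol response element TCACNCCAC was also in 1 window, at another start of Mlxipl, against 1.24% of all. The GC box GGGCGG was in 6 of the 15 windows and in 35.7% of all. A reversed CCAAT box and a GC box can share their G letters, and each was counted by itself.

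All 10 genes passed the filter on low values in each table, and the lowest member value in any library was 288 reads. Library totals were 16.2 to 25.9 M recovered reads. Values are CPM, read counts per megaread of library, scaled by the authors within each table. Scaling factors were 1.11 to 1.23 in MCD livers and 0.832 to 0.899 in CD livers, and 1.05 to 1.16 in 10-week STAM livers and 0.878 to 0.939 in their controls. With scaling by total reads alone, the median log2 fold change of all genes shifted by 0.42 in the MCD comparison, 0.08 in the 4-week and 0.29 in the 10-week comparison. The share of higher genes among the called ones was then 86.1%, 83.7% and 88%, against 52.9%, 66.6% and 53% with the deposited scaling. Hepatocyte markers (Alb, Ttr, Apoa1, Apob, Serpina1e and Hnf4a) summed to at least 45181 CPM in every library, and the tissue is labelled liver.

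Per kilobase of counted transcript, Thrsp had the highest mean level of the 10 genes in 5 of the 6 groups and Acacb the lowest in all 6. In CD livers the order of the mean levels was Thrsp at 382, Me1 at 206, Acly at 166, Mlxipl at 132, Fasn at 126, Acss2 at 111, Nr1h3 at 48.7, Acaca at 42.6, Srebf1 at 36.6 and Acacb at 15.6 CPM per kilobase. Only Acss2 and Nr1h3, of the 9 neighbouring pairs in that order, were further apart than their summed standard deviations. In MCD livers Me1 at 78.9 and Mlxipl at 74.7 CPM per kilobase led, and Thrsp was seventh at 25.4 CPM per kilobase. In 10-week control livers Thrsp at 376, Mlxipl at 167 and Srebf1 at 76.8 CPM per kilobase led, and Fasn was eighth at 38.8 CPM per kilobase. Fasn had 99.8 CPM per kilobase in 4-week controls, a level from a separately scaled table.

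MCD feeding went with low messenger RNA of most of the route. In all, 8 of the 10 genes were lower in MCD than in CD livers and none was higher, at a limma Benjamini-Hochberg adjusted p under 0.05. In the same comparison 42.7% of the 15312 tested genes were called in either direction, 20.1% lower and 22.6% higher. The MCD and CD livers did not overlap in the 8 called genes, whereas 40.1% of all tested genes had no overlap. The median log2 fold change of the 10 genes was −1.47, and that of all tested genes was 0.07. The 10 genes together took 0.184% ± 0.0238 of the reads in MCD livers and 0.402% ± 0.213 in CD livers (SD, n = 4 each; exact permutation p = 0.0286, the smallest that 4 against 4 allows, and 0.0857 adjusted over 3 comparisons).

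Among the suppliers of acetyl-CoA, Acss2 had 72.2, 70.5, 90.1 and 52.8 CPM in MCD livers, against 459, 288, 266 and 241 CPM in CD livers. Every MCD liver was far below every CD liver, with a 4.32-fold lower geometric mean (log2 fold change −2.11 ± 0.21 SE, limma adjusted p = 1.6e-05). Fold differences of means here and below are ratios of geometric means, taken from mean log2 values. Acly had 185, 205, 266 and 245 CPM in MCD livers, against 1417, 516, 564 and 418 CPM in CD livers. The groups did not overlap, and CD replicate 1 stood well above the other CD livers (log2 fold change −1.53 ± 0.35 SE, limma adjusted p = 0.00787).

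The carboxylases parted. Acaca had 244, 263, 276 and 264 CPM in MCD livers, against 594, 259, 394 and 292 CPM in CD livers. The MCD livers were nearly equal, the CD livers spread 2.30-fold, and the difference missed the threshold (log2 fold change −0.48, 95% interval −0.95 to −0.01, limma adjusted p = 0.0921). It passed at an adjusted p of 0.0226 without CD replicate 2, with a log2 fold change of −0.65. Acacb had 28.5, 29.2, 30.7 and 52.6 CPM in MCD livers, against 200.1, 126, 139 and 65.4 CPM in CD livers. It was 3.62-fold lower in MCD livers without overlap (log2 fold change −1.85 ± 0.34 SE, limma adjusted p = 0.00287). The ratio of Acaca to Acacb per kilobase, which does not depend on scaling, was 7.42 ± 1.82 in MCD livers and 2.89 ± 0.950 in CD livers (SD, n = 4 each). The ratios did not overlap, with 4.70 as the lowest in MCD and 4.20 as the highest in CD livers (exact permutation p = 0.0286, two-sided, and 0.0833 adjusted over 3 comparisons).

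Fasn had 258, 241, 455 and 299 CPM in MCD livers, against 2820.2, 795, 838 and 554 CPM in CD livers. The groups did not overlap, and CD replicate 1 was again highest, at 5.09 times the lowest CD liver. The geometric mean was 3.33-fold lower in MCD livers (log2 fold change −1.74, 95% interval −2.91 to −0.56, limma adjusted p = 0.0267). That call was lost with total-read scaling (adjusted p = 0.0597), with quantile normalization (0.104) and without MCD replicate 1 (0.0675), 2 (0.0573) or 4 (0.0747), the sign being negative throughout. Me1 had 217, 275, 279 and 257 CPM in MCD livers, against 892, 497, 769 and 521 CPM in CD livers. It was 2.54-fold lower (log2 fold change −1.34 ± 0.18 SE, limma adjusted p = 9.03e-05), with a log2 fold change of −0.84 under quantile normalization.

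Thrsp stood out for its size within the 10 genes. It had 21.1, 11.6, 58.2 and 14.5 CPM in MCD livers, against 679, 308, 325 and 273 CPM in CD livers. The highest MCD liver was still far below the lowest CD liver, and the geometric mean was 17.3-fold lower (log2 fold change −4.11, 95% interval −5.43 to −2.80, limma adjusted p = 0.00102). MCD livers also spread 5.02-fold among themselves in this gene.

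Of the regulators, Srebf1 had 50.8, 35.8, 72.5 and 60.0 CPM in MCD livers, against 300.2, 109, 114 and 106 CPM in CD livers. It was 2.66-fold lower without overlap (log2 fold change −1.41 ± 0.37 SE, limma adjusted p = 0.0174), a call lost with total-read scaling (adjusted p = 0.0551). Mlxipl had 288, 231, 324 and 247 CPM in MCD livers, against 514, 499, 465 and 450.5 CPM in CD livers. Both groups were tight, and it was 1.78-fold lower (log2 fold change −0.83 ± 0.12 SE, limma adjusted p = 0.000114), with −0.33 under quantile normalization. Nr1h3 had 73.8, 62.7, 78.5 and 87.3 CPM in MCD livers, against 90.3, 98.0, 82.2 and 80.8 CPM in CD livers. These groups overlapped (log2 fold change −0.22, 95% interval −0.47 to 0.02, limma adjusted p = 0.132), and the value was 0.20 with total-read scaling. In all, 6 of the 8 calls, those of Acly, Acss2, Acacb, Me1, Thrsp and Mlxipl, passed under all 14 alternatives run.

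**Figure D1:**
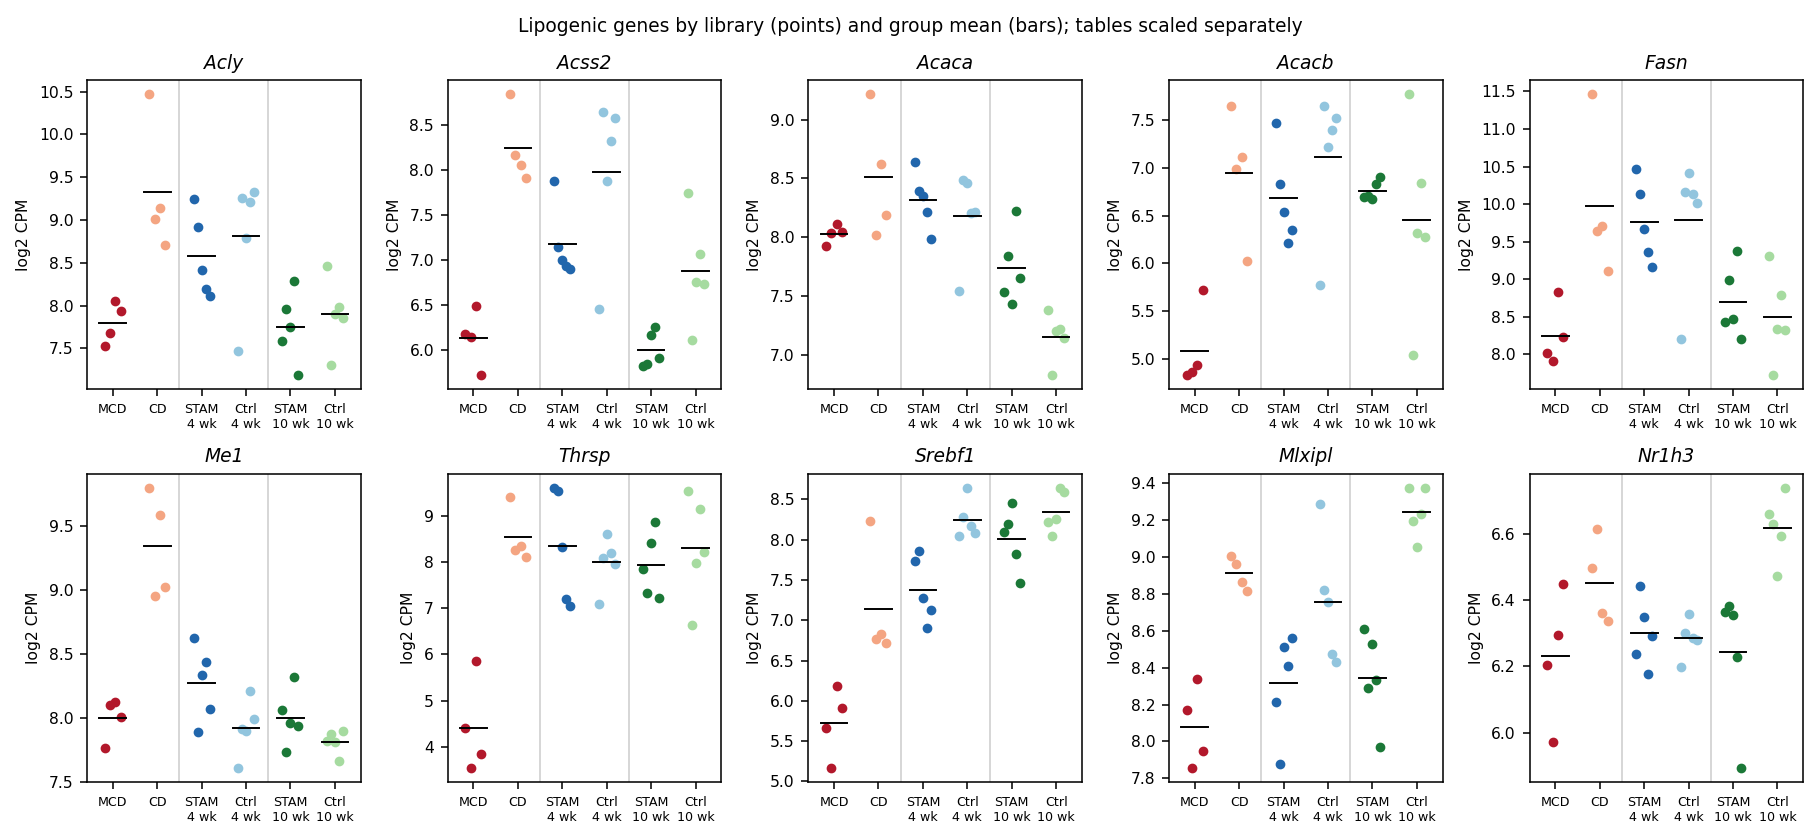
Level of each lipogenic gene in every library, as log2 CPM on a separate axis per gene, with MCD beside CD and STAM beside control at 4 and at 10 weeks; points are livers and bars are group means. Thrsp, Acss2 and Acacb are low in all MCD livers, CD replicate 1 tops Fasn, Acly and Srebf1 in its table, and 4-week control replicate 1 is lowest of its group in Fasn, Acly and Acss2.

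Other cell types moved with the MCD comparison, and their part in these differences was not tested. In bulk liver, fewer cells of a type and less RNA per cell cannot be told apart. Hepatocyte markers summed to 68169 to 90486 CPM in MCD livers and 92553 to 106659 CPM in CD livers, and 5 of 6 were called lower, or 1 of 6 under quantile normalization. Macrophage markers summed to 393 to 689.8 CPM in MCD livers and 213 to 335 CPM in CD livers (4 of 6 higher), and stellate cell and myofibroblast markers to 523 to 687 CPM and 372 to 406 CPM (5 of 6 higher). Cholangiocyte markers summed to 11.7 to 17.0 CPM in MCD livers and 5.67 to 12.7 CPM in CD livers (3 of 4 higher, 0 of 4 with quantile normalization), and T cell markers to 1.85 to 2.00 CPM and 1.09 to 2.03 CPM (0 of 3 called). Endothelial markers summed to 163 to 202 CPM in MCD livers and 171 to 193 CPM in CD livers, with 1 of 4 lower, but 3 of 4 higher with total-read scaling. Adipocyte markers, of fat cells that also make fatty acids, summed to 7.25 to 8.94 CPM in MCD livers and 5.94 to 11.5 CPM in CD livers, and 0 of 6 were called. Pancreatic acinar markers, a check for dissection, summed to 9.58 to 13.6 CPM in MCD livers and 37.8 to 50.1 CPM in CD livers, with Prss2 and Pnlip at 0 in all 8.

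The neighbouring steps of the route were read from lists of related genes. Of 8 desaturases and elongases, which act on the palmitate that Fasn makes, 6 were lower in MCD livers and none was higher. Scd1, the stearoyl-CoA desaturase of liver, averaged 104 ± 75.6 CPM in MCD livers and 14406 ± 4630.1 CPM in CD livers (SD, n = 4 each; log2 fold change −7.38, limma adjusted p = 5.78e-05). Elovl3, an elongase of very long chains, averaged 13.8 ± 8.60 CPM in MCD livers and 1073 ± 173 CPM in CD livers (SD, n = 4 each; log2 fold change −6.49, limma adjusted p = 2.3e-05). Under total-read scaling 1 of the 8 genes was higher and 5 were lower, and under quantile normalization 2 and 5.

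In the list of SREBP processing, 3 of 5 genes were lower and 1 was higher, or 2 and 2 with either total-read scaling or quantile normalization. Insig1 (log2 fold change −1.47) and Insig2 (−1.14), which hold SREBP in the endoplasmic reticulum, were lower in MCD livers with limma adjusted p of 4.17e-06 and 5.4e-05. Scap, the escort that carries SREBP to the Golgi, was also lower (−0.60, adjusted p = 0.0161), but not with total-read scaling (0.438) or quantile normalization (0.0558). The cholesterol arm of the same system differed in sign, with 3 of 7 genes higher and 2 lower. Sqle (1.12, adjusted p = 7.49e-05) and Hmgcs1 (0.95, adjusted p = 0.000352), enzymes of sterol synthesis, were higher. Srebf2 had 0.35 (adjusted p = 0.0623), and was called higher with total-read scaling (0.77, 0.00129), with quantile normalization (0.44, 0.024) and without CD replicate 1 (0.0467) or 2 (0.0288). Under total-read scaling 4 of these 7 genes were higher and none was lower.

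The list of the ChREBP partner Mlx and sugar-responsive genes gave 3 lower and 0 higher of 6 in MCD livers, but 1 lower and 3 higher with total-read scaling. Khk, which phosphorylates fructose, was lower (log2 fold change −1.36, limma adjusted p = 0.000407). Pklr, liver pyruvate kinase, was lower with the deposited scaling (−0.52, adjusted p = 0.0165), but had −0.10 with total-read scaling and 0.11 with quantile normalization. Mlx, the dimer partner of ChREBP, had −0.09 (adjusted p = 0.572). In the list of insulin signalling 1 of 6 genes, the receptor Insr (−0.63, adjusted p = 0.000375), was lower. With total-read scaling that call was lost (0.0586), and 3 of the 6 genes were higher and none was lower.

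Of 7 genes of NADPH and citrate supply, 3 were lower and 1 was higher in MCD livers, led by Idh1 (log2 fold change −0.95, limma adjusted p = 1.47e-05) and Mdh1 (−0.90, adjusted p = 2.83e-05). The Mdh1 call was lost with quantile normalization (−0.24, 0.0734), and the list had 2 lower and 2 higher genes with total-read scaling. Of 7 isozymes and paralogs, 1 was lower and 2 were higher. Acss1, the mitochondrial counterpart of Acss2, averaged 1.67 ± 0.311 CPM in MCD livers and 0.548 ± 0.309 CPM in CD livers (SD, n = 4 each; log2 fold change 1.73, adjusted p = 0.00201), and Mecr, of mitochondrial fatty acid synthesis, was lower (−0.80, adjusted p = 0.0002). Mid1ip1, the paralog of Thrsp, had −0.30 (adjusted p = 0.544). Among 5 genes of triglyceride assembly 2 were lower, Pnpla3 (−4.72, adjusted p = 5.64e-05) and Dgat2 (−0.48, adjusted p = 0.00711). The Dgat2 call was lost with total-read scaling (adjusted p = 0.702) and with quantile normalization, where its value was 0.13.

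The 4 genes that restrain the carboxylases or remove their product included 2 lower ones. These were the AMPK subunit gene Prkaa2 (log2 fold change −0.80, limma adjusted p = 0.00111) and the malonyl-CoA decarboxylase gene Mlycd (−0.44, adjusted p = 0.0131). With total-read scaling neither call was kept (adjusted p of 0.051 and 0.937), none of the 4 was lower and 2 were higher. Of 8 LXR partners and targets 3 were lower and 1 was higher, among them the sterol exporters Abca1 (−0.67, adjusted p = 0.00604) and Abcg1 (0.68, adjusted p = 0.00791). Nr1h2, which encodes LXR beta, had −0.10 (adjusted p = 0.701). With total-read scaling this list had 3 higher and 0 lower genes, and the Abca1 call was lost (0.168), as it was with quantile normalization (0.488).

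At 4 weeks the STAM livers differed from controls in 1 of the 10 genes, Srebf1. In that comparison 9.8% of the 15312 tested genes were called, 3.27% lower and 6.52% higher. Srebf1 had 213, 232, 155, 120.2 and 139.9 CPM in STAM livers, against 265, 312, 400.2, 289 and 271 CPM in control livers. It was the only gene of the 10 with no overlap between the groups (10.1% of all tested genes had none), and its mean was 1.82-fold lower in STAM livers (log2 fold change −0.87, 95% interval −1.27 to −0.46, limma adjusted p = 0.013). The call held under all 16 alternatives run.

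The enzymes below SREBP-1 spread widely within both groups at this age. Fasn had 1414, 1126, 815, 659 and 570.4 CPM in 4-week STAM livers, against 295, 1145, 1366, 1121 and 1032 CPM in control livers. The groups overlapped, with 1 STAM liver above all controls and 1 control liver below all STAM livers (log2 fold change −0.03, 95% interval −1.03 to 0.98, limma adjusted p = 0.984). Control replicate 1 was low in Fasn, Acly, Acss2, Acacb and Acaca, and without it Fasn had −0.42, still short of the threshold. Acss2 had 236, 141, 128, 122 and 119.7 CPM in STAM livers, against 87.8, 401, 236, 320.1 and 382 CPM in control livers. Its log2 fold change was −0.80 (95% interval −1.76 to 0.15, adjusted p = 0.294), and without control replicate 1 it was −1.18 (adjusted p = 0.0105), so that 2 of the 10 genes were then lower.

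Thrsp had 777, 741, 319.9, 146 and 131 CPM in 4-week STAM livers, against 136, 271, 389, 294 and 249 CPM in control livers. The STAM livers lay on both sides of the controls, with a 5.91-fold range (log2 fold change 0.35, 95% interval −0.97 to 1.67, limma adjusted p = 0.786). Me1 had 0.35 (95% interval 0.04 to 0.66, adjusted p = 0.149) and Mlxipl −0.44 (−0.81 to −0.06, adjusted p = 0.138). Acly (−0.23), Acacb (−0.43) and Acaca (0.13) had adjusted p-values of 0.786, 0.569 and 0.716. Nr1h3 varied little, at 72.3 to 87.0 CPM in STAM livers and 73.4 to 82.1 CPM in control livers (log2 fold change 0.01, 95% interval −0.13 to 0.16). The ratio of Acaca to Acacb per kilobase was 2.98 ± 0.615 in STAM livers and 2.05 ± 0.693 in control livers (SD, n = 5 each; exact permutation p = 0.0556, and 0.0833 adjusted over 3 comparisons).

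Few neighbouring genes were called at 4 weeks. Of the 6 genes in the list of Mlx and sugar-responsive genes 2 were higher in STAM livers. These were Tkfc (log2 fold change 0.82, limma adjusted p = 1.65e-05) and Khk (0.34, adjusted p = 0.033), both of fructose breakdown. The Khk call was lost on leaving out any of 6 livers. Abca1 was the only called gene of the LXR list and was lower (−0.45, adjusted p = 0.00109). Prkaa2 was lower (−0.32, adjusted p = 0.0444), a call lost under 11 of 16 alternatives. No gene of the lists of desaturases and elongases, SREBP processing, insulin signalling, NADPH supply, isozymes, the cholesterol arm or triglyceride assembly passed in limma; of their 45 tested genes 7 had an unadjusted p under 0.05, voom called 0, and total-read scaling called 1 gene of SREBP processing higher. Insig1 had −0.62 (adjusted p = 0.393), and −1.02 (adjusted p = 9.02e-05) without control replicate 1. Scap had −0.40 (adjusted p = 0.0951), Mid1ip1 −0.45 (0.0864), Scd1 −0.19 (0.906), Pklr 0.17 (0.474) and Mlx −0.09 (0.614). Insig2 had 0.25 (0.699), Srebf2 −0.10 (0.821) and Nr1h2 −0.06 (0.765). Without control replicate 1, Srebf2 was called lower (−0.31, 0.0328). Hepatocyte markers summed to 105856 to 118893 CPM in STAM livers and 129814 to 147576 CPM in control livers (1 of 6 lower), and macrophage markers to 316 to 401 CPM and 217 to 269 CPM (6 of 6 higher). Endothelial markers summed to 169 to 217 CPM in STAM livers and 221 to 261 CPM in control livers (2 of 4 lower), and stellate cell and myofibroblast markers to 347 to 425 CPM and 396 to 489 CPM (1 of 6 lower). Of 4 cholangiocyte markers 2 were higher, and none of 4 tested adipocyte, 3 T cell and 1 tested acinar marker was called. Their part in the Srebf1 difference was not tested.

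At 10 weeks the STAM livers were low in the carbohydrate-sensing regulator Mlxipl, in Nr1h3 and in Acss2, and high in Acaca. In this comparison 47.8% of the 15312 tested genes were called, 22.5% lower and 25.3% higher, so the 4 called genes of 10 are a share near the background. Mlxipl had 389.9, 313, 369, 322 and 250.3 CPM in STAM livers, against 664, 585, 531, 600.4 and 662 CPM in control livers. Every STAM liver was below every control liver, with a 1.86-fold lower mean (log2 fold change −0.90, 95% interval −1.14 to −0.65, limma adjusted p = 4.23e-05). Nr1h3 had 82.3, 83.4, 81.9, 75.0 and 59.4 CPM in STAM livers, against 101, 98.9, 88.9, 96.5 and 107 CPM in control livers. It too had no overlap (log2 fold change −0.37 ± 0.09 SE, adjusted p = 0.00451), but had −0.08 with total-read scaling (adjusted p = 0.436) and −0.21 with quantile normalization (0.0848).

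Acss2 had 56.6, 57.4, 71.8, 76.4 and 60.4 CPM in 10-week STAM livers, against 215, 69.2, 108, 134 and 106 CPM in control livers. The control liver with 69.2 CPM lay within the STAM range, and the mean was 1.84-fold lower in STAM livers (log2 fold change −0.88 ± 0.26 SE, limma adjusted p = 0.0172, and 0.0621 with total-read scaling). Acaca had 185, 229.8, 173, 299 and 201 CPM in STAM livers, against 167, 114, 148, 149 and 141 CPM in control livers. All STAM livers exceeded all control livers, with a 1.5-fold higher mean (log2 fold change 0.58, 95% interval 0.28 to 0.89, adjusted p = 0.00459). With Mlxipl it kept its call under all 16 alternatives run. In all, 3 of the 10 genes, Acaca, Mlxipl and Nr1h3, had no overlap between groups, against 33.1% of all tested genes.

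The remaining enzymes did not separate at 10 weeks. Fasn had 345, 507, 355, 664 and 294 CPM in STAM livers, against 635, 211, 323, 441 and 320.1 CPM in control livers (log2 fold change 0.20, 95% interval −0.50 to 0.89, limma adjusted p = 0.629). Thrsp had 231, 160.3, 337, 468 and 148 CPM in STAM livers, against 739, 99.3, 252, 565 and 296 CPM in control livers (log2 fold change −0.37, 95% interval −1.67 to 0.93). The controls enclosed all STAM livers in Thrsp, and 3 of 5 STAM livers exceeded no control but the lowest. Acacb had 102 to 120.1 CPM in STAM livers and 33.0 to 218 CPM in control livers, so the STAM livers were much closer to each other. Srebf1 had 177 to 349 CPM in STAM livers and 263 to 398 CPM in control livers (log2 fold change −0.34, adjusted p = 0.124), and passed without STAM replicate 3 (−0.45, 0.0377). Acly had −0.15 (adjusted p = 0.63). Me1 had 0.19 (adjusted p = 0.121), and passed with total-read scaling (0.48, 0.00107), with quantile normalization (0.43, 0.00447) and without STAM replicate 2 (0.0386). The ratio of Acaca to Acacb was 1.88 ± 0.387 in STAM livers and 1.72 ± 0.942 in control livers (SD, n = 5 each; exact permutation p = 0.762).

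**Figure D2:**
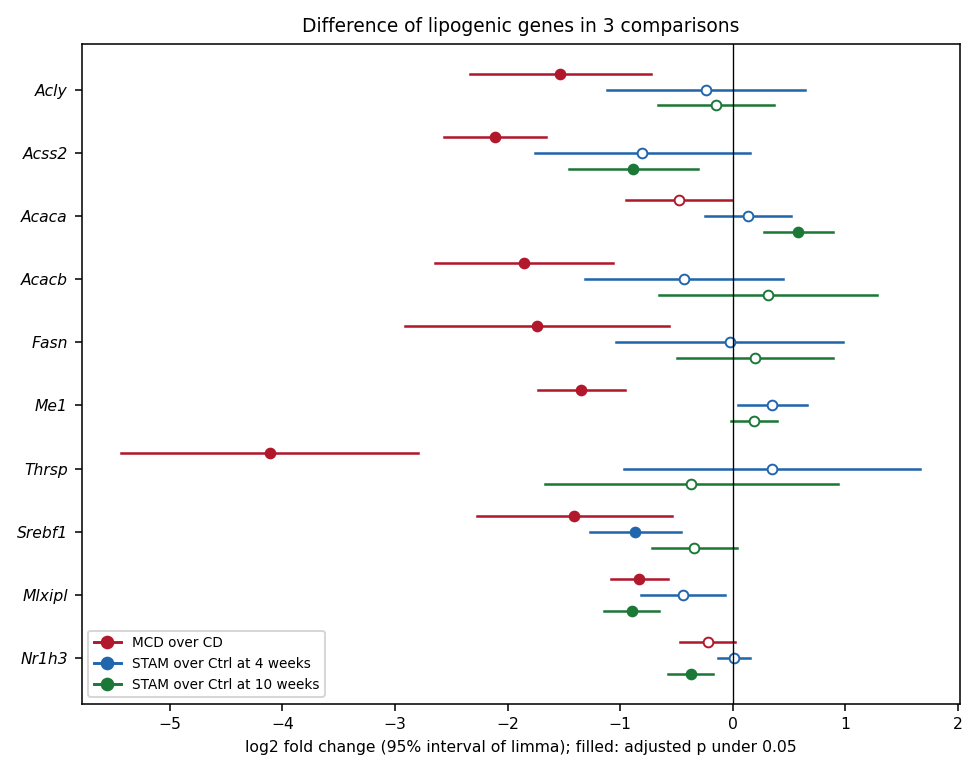
Log2 fold change of each lipogenic gene (points) with its 95% interval (lines) for MCD over CD, STAM over control at 4 weeks and STAM over control at 10 weeks; filled points have an adjusted p under 0.05. The MCD points of Thrsp (−4.11) and Acss2 (−2.11) lie furthest to the left, and Acaca at 10 weeks (0.58) is the filled point on the right.

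The 10-week neighbours moved in more than 1 direction. Of 8 desaturases and elongases 6 were higher in STAM livers and none was lower, a count that was the same with total-read scaling and quantile normalization. Elovl5, which lengthens polyunsaturated chains, averaged 929.96 ± 183 CPM in STAM livers and 266 ± 48.0 CPM in control livers (SD, n = 5 each; log2 fold change 1.80, limma adjusted p = 1.9e-06). Fads2, the delta-6 desaturase, had 1.37 (adjusted p = 2.54e-06), and Scd1 had 0.49 (adjusted p = 0.271). Of the 6 genes in the list of Mlx and sugar-responsive genes 4 were higher and 1 was lower. Txnip, a glucose-induced gene and target of ChREBP, averaged 393 ± 66.7 CPM in STAM livers and 104 ± 26.3 CPM in control livers (SD, n = 5 each; log2 fold change 1.93, adjusted p = 1.43e-05). Pklr was also higher (1.11, adjusted p = 0.00538), while Mlx was lower (−0.69, adjusted p = 9.69e-06) beside its partner Mlxipl.

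In the insulin list, 3 of 6 genes were lower and 1 was higher in 10-week STAM livers, against 1 lower and 3 higher with total-read scaling. Irs2, which insulin represses, was higher (log2 fold change 1.18, limma adjusted p = 0.000237). Insig1, a target of SREBP, averaged 133 ± 31.9 CPM in STAM livers and 414 ± 108 CPM in control livers (SD, n = 5 each; log2 fold change −1.63, adjusted p = 0.000126). In the SREBP list 1 of 5 was lower (3 higher and 1 lower with total-read scaling) and 1, the protease gene Mbtps2 (0.32, adjusted p = 0.0316), was higher. The Mbtps2 call was lost with quantile normalization and without 3 of the livers in turn. Insig2 had 0.03 (0.92). Scap had 0.17 (0.187), and was called higher with total-read scaling (0.46, 0.000804), with quantile normalization (0.35, 0.0132), without control replicate 1 (0.0347) and without STAM replicate 5 (0.0438). Of 7 genes of the cholesterol arm 2 were lower and none was higher, and Srebf2 had −0.23 (0.143).

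Lpin1, a phosphatidate phosphatase of triglyceride synthesis, averaged 518 ± 157 CPM in 10-week STAM livers and 102 ± 40.0 CPM in control livers (SD, n = 5 each; log2 fold change 2.41, limma adjusted p = 0.000389). It was the only higher gene of its list of 5, where Agpat2 (−0.54, adjusted p = 0.00435) was 1 of 2 lower ones. With total-read scaling that list had 2 higher and 0 lower genes, and the Agpat2 call was lost there (−0.25, 0.103) and with quantile normalization (−0.34, 0.0593). Of 7 isozymes and paralogs 2 were higher and 2 lower, or 4 and 1 with total-read scaling. Acss1 was higher (2.35, adjusted p = 0.00462), with 0.647 to 7.14 CPM in STAM livers and 0.144 to 0.575 CPM in control livers, and Mid1ip1 was lower (−0.91, adjusted p = 0.000986). Of 8 LXR partners and targets 3 were higher and 1 was lower, or 7 higher and 0 lower with either total-read scaling or quantile normalization. Abcg1 (1.12, adjusted p = 3.32e-05) and Mylip (0.83, adjusted p = 4.43e-05) led, while Nr1h3 was lower. Nr1h2 had 0.21 (0.0538), and was called higher under 5 of 16 alternatives, among them total-read scaling (0.50, 0.000323). In NADPH supply, 1 gene was higher, Pgd (0.86, adjusted p = 0.000491), and 3 of 7 were lower, led by Idh1 (−0.59, adjusted p = 3.32e-05). With total-read scaling that list had 4 higher and 1 lower. The AMPK subunit genes Prkaa1 (−0.34, adjusted p = 0.00678) and Prkaa2 (−0.37, adjusted p = 0.0111) were lower, but had −0.04 and −0.08 with total-read scaling.

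**Figure D3:**
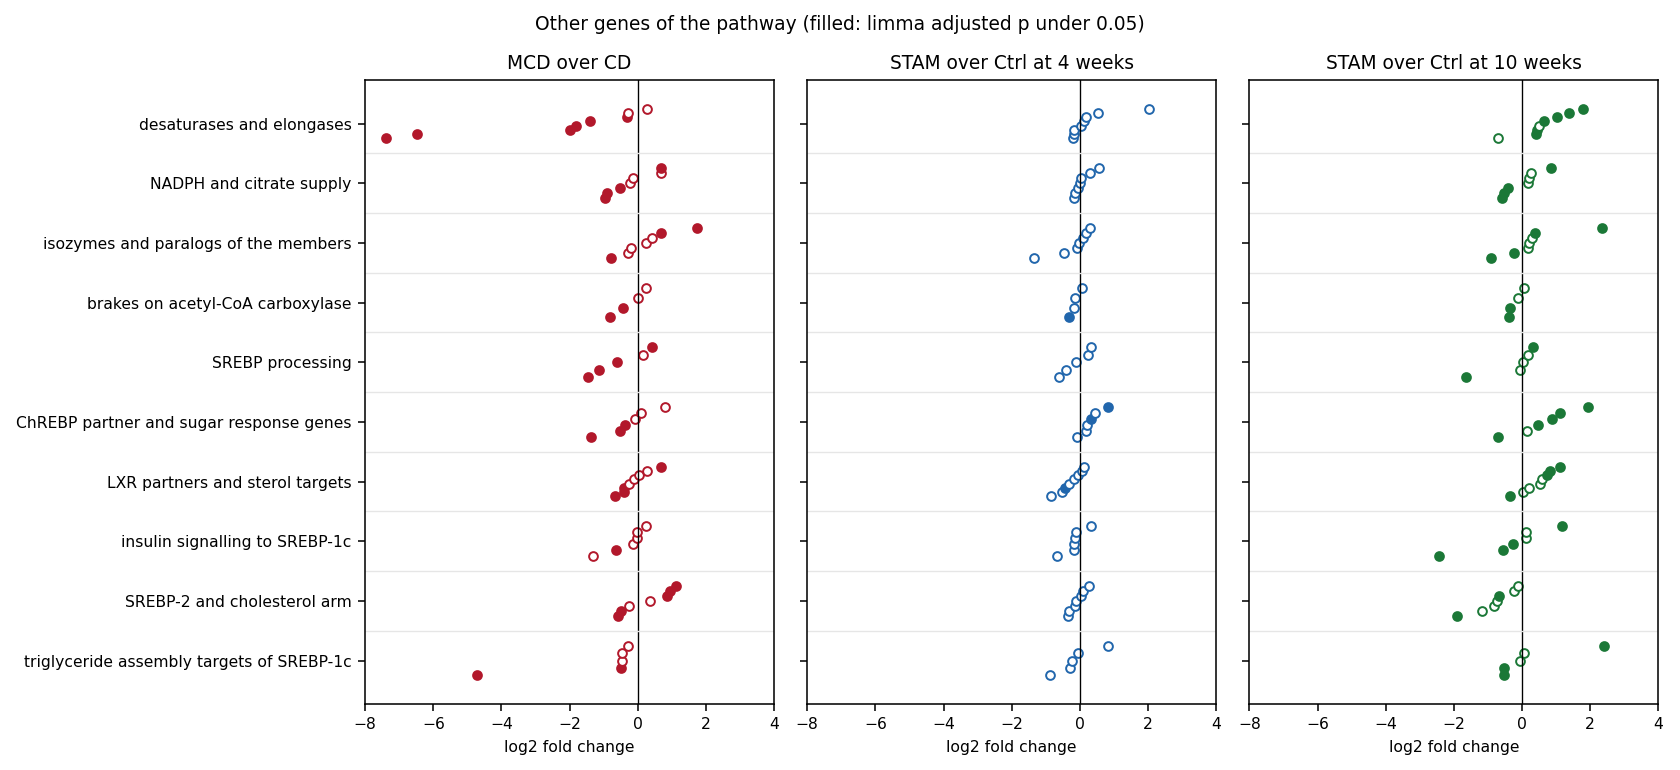
Log2 fold change of the other genes of the route, 1 point per gene, by list (rows) and comparison (panels); filled points have an adjusted p under 0.05. Scd1 (−7.38) and Elovl3 (−6.49) lie far left in the MCD panel, where 6 of 8 desaturases and elongases were lower, and 6 of 8 were higher at 10 weeks.

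Cell type markers also differed at 10 weeks, and their part in these differences was not tested. Hepatocyte markers summed to 45181 to 60917 CPM in STAM livers and 93025 to 112217 CPM in control livers, with 6 of 6 lower, 3 of 6 with total-read scaling and 2 of 6 with quantile normalization. Macrophage markers summed to 294 to 369 CPM in STAM livers and 209 to 286 CPM in control livers (5 of 6 higher), and stellate cell and myofibroblast markers to 349.9 to 567 CPM and 279 to 399.7 CPM (3 of 6 higher, 1 lower). Cholangiocyte markers summed to 7.0 to 21.8 CPM in STAM livers and 2.72 to 6.03 CPM in control livers (3 of 4 higher, 0 of 4 with quantile normalization). Of 4 endothelial markers 2 were higher, of 3 T cell markers 1 was higher, and the 1 tested acinar marker was not called. The adipocyte sum was 29.2 to 56.6 CPM in STAM livers and 7.18 to 11.5 CPM in control livers, where 1 of 2 tested markers, Fabp4, was higher (log2 fold change 2.38, limma adjusted p = 5.63e-05). Of the 6 listed adipocyte markers, Lep and Plin1 had no read in any 10-week liver, and Retn had none in STAM livers. Adipoq, Cfd and Fabp4 had reads in both groups. Whether fat cells were present was not tested.

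The difference between models was tested directly for each gene as the MCD effect minus the 10-week STAM effect. In all, 7 of the 10 genes were more negative in MCD and none was more positive (background 27.9% of 14986 tested genes, 15.0% lower and 12.9% higher). Thrsp had the largest gap among them, at −3.75 on the log2 scale (95% interval −5.53 to −1.96, limma adjusted p = 0.00381). Acacb (−2.16, adjusted p = 0.014), Fasn (−1.93, 0.0252), Me1 (−1.53, 1.98e-05), Acly (−1.38, 0.0277), Acss2 (−1.23, 0.0196) and Acaca (−1.06, 0.0072) followed. The Fasn call was lost with quantile normalization (0.0541) and without MCD replicate 2 (0.0511). The Acly call was lost with quantile normalization (0.0681) and without MCD replicate 1 (0.055) or 2 (0.0516).

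The 3 regulators were not called in that test. Srebf1 had −1.07 (95% interval −1.95 to −0.19, limma adjusted p = 0.0677), and passed with quantile normalization (0.0444), without MCD replicate 3 (0.0468) and without STAM replicate 5 (0.0416). Mlxipl had 0.07 (95% interval −0.29 to 0.42), which limits any gap between its similar falls of 0.83 and 0.90 in the 2 models. Nr1h3 had 0.15 (95% interval −0.16 to 0.46). Among the neighbours the gap was −7.87 for Scd1 (adjusted p = 1.23e-06), −5.80 for Elovl3 (1.27e-05), −4.78 for Pnpla3 (2.8e-05) and −2.88 for Lpin1 (0.00144). It was −1.64 for Pklr (0.00139), −1.50 for Khk (0.000605), −1.20 for Irs2 (0.00758), −1.17 for Insig2 (0.00242), −1.13 for Lpcat3 (2.15e-06), −0.98 for Mecr (4.59e-05), −0.77 for Scap (0.0103) and −0.74 for Insr (6.78e-05). It was positive for Idi1 (2.01, 0.0114), a sterol synthesis enzyme, and for Prkaa1 (0.57, 0.00593). Those 14 calls passed under all 24 alternatives run. Calls lost under some were those of Mylip (−0.57, 0.0343), Mlycd (−0.49, 0.0189), Taldo1 (−0.41, 0.0474) and Idh1 (−0.35, 0.0254). The models differ in diet and in control animals, so model and design cannot be told apart.

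The STAM effect at 10 weeks minus that at 4 weeks was called for 1 of the 10 genes, Nr1h3 (−0.39, 95% interval −0.63 to −0.15, limma adjusted p = 0.0205). Here 20% of 15022 tested genes were called, 11.2% lower and 8.89% higher. That call was lost with total-read scaling (0.256) and quantile normalization (0.128). Without 4-week control replicate 1, Acaca (0.61, adjusted p = 0.0311) and Mlxipl (−0.59, 0.0253) were called as well, against 0.45 (0.201) and −0.46 (0.139) with it. Srebf1 had 0.52 (95% interval −0.04 to 1.09, adjusted p = 0.185), and passed with total-read scaling (0.74, 0.0458). Fasn had 0.22 (95% interval −0.95 to 1.40) and Thrsp −0.72 (−2.47 to 1.03), so these intervals are wide on both sides of 0. Acacb had 0.74 (95% interval −0.50 to 1.98, limma adjusted p = 0.402), Acly 0.09 (0.921), Acss2 −0.08 (0.935) and Me1 −0.16 (0.566). Of the neighbours, Txnip had 1.5 (0.00196), Irs2 1.86 (0.0156), Elovl5 1.75 (0.00781) and Lpcat3 1.05 (2.02e-05), the last a phospholipid-remodelling target of LXR, and these 4 calls passed under all 26 alternatives run. Calls lost under some were those of Elovl3 (−2.73, 0.0324), Acss1 (2.18, 0.0357), Abcg8 (1.43, 0.0385), Pklr (0.94, 0.0343), Scap (0.57, 0.0327), Mdh1 (−0.51, 0.0124), Idh1 (−0.46, 0.00847) and Prkaa1 (−0.40, 0.0163).

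Apart from the group differences, the enzymes varied together from liver to liver. After each group mean was removed, Fasn and Acly deviated together over the 28 livers (Pearson r = 0.95, Spearman rho = 0.94, and r = 0.91 without CD replicate 1 and 4-week control replicate 1). Fasn and Acaca had r = 0.90 (rho 0.89, and 0.82 without the same 2 livers), and Fasn and Thrsp had r = 0.78 (rho 0.85, and 0.82). Srebf1 and Fasn had r = 0.67 (rho 0.70, and 0.60). Of the 36 pairs that do not involve Mlxipl, 35 had a positive r, with a median of 0.61. Mlxipl was different in sign, with a positive r in 2 of its 9 pairs and a median of −0.22, or −0.06 with the 2 farthest livers left out of each pair. These are descriptions over livers that share a table's scaling, and no p is given.

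**Figure D4:**
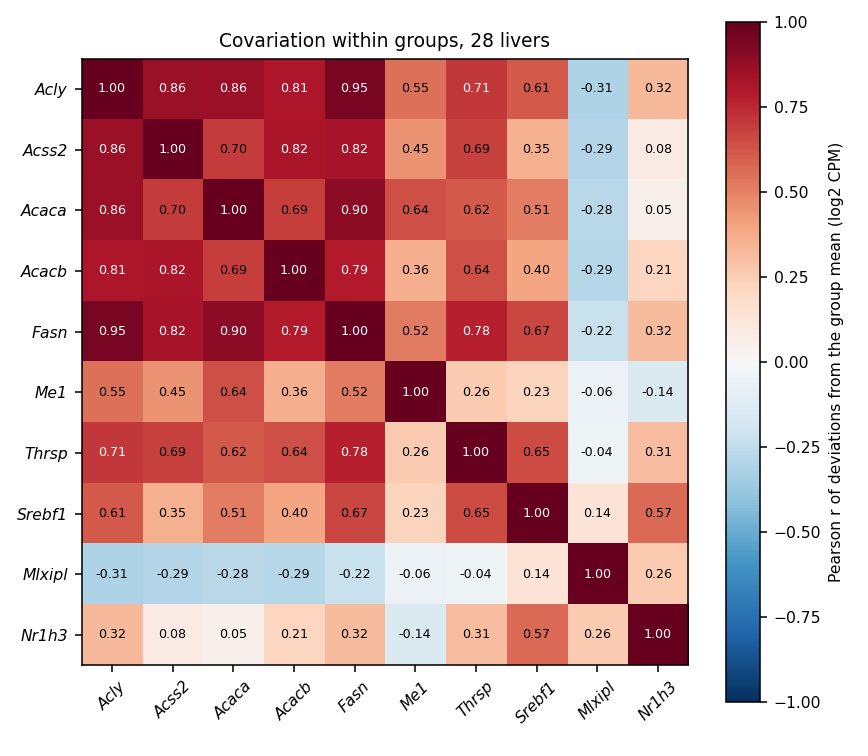
Pearson r between each pair of lipogenic genes over 28 livers, computed on log2 CPM after subtraction of the group mean; colour and printed values give r. Fasn and Acly reach 0.95, while the Mlxipl row is mostly below 0.

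The spread between livers of a group was described without a test, and single genes lay on either side of the medians. The median standard deviation of their log2 values was 0.28 in MCD livers and 0.57 in CD livers, while that of all tested genes was 0.23 and 0.22. It was 0.41 in 4-week STAM livers and 0.47 in their controls (all genes 0.19 and 0.23), and 0.28 in 10-week STAM livers and 0.33 in theirs (0.19 and 0.20). Among 14838 other genes tested in all tables, those with within-group deviations most like the mean standardized profile of the 10 included Elovl6 (r = 0.85 over 28 livers), Cyb5r3 (0.84), Aacs (0.82) and Gcat (0.79). Without the 2 livers farthest from the median profile their r was 0.73 to 0.83.

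In the authors' deposited table the adjusted p was under 0.05 for 9 of the 10 genes in the MCD comparison, all lower, for 2 in the 4-week comparison, both lower, and for 4 in the 10-week comparison, 3 lower and 1 higher. The share of all genes under that threshold in the authors' table was not computed. In the limma fits used here, 42.7%, 9.8% and 47.8% of all tested genes were called in these comparisons. The genes beyond those called here were Acaca in MCD livers (log2 fold change −0.56, adjusted p = 0.0268, in the authors' deposited table) and Acss2 in 4-week STAM livers (−0.93, adjusted p = 0.0242, in the authors' deposited table).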

How the data were processed

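Liver RNA of 28 samples was sequenced from both fragment ends after Trizol lysis, column purification and stranded poly(A) selection, per the labels' protocols. STAR 2.4.2a and mm10 are named in the submitters' processing notes, and the sources used here name no read counter, annotation or authors' test. The deposited sample columns hold log2 CPM scaled by the authors within each table. After removal of a prior of 0.25 reads (scaled to each library), 100% of values were whole reads within 0.05 reads. The authors' log2 fold changes and p-values were also deposited and are used only where named.

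Each comparison was fitted on the log2 values with limma 3.58.1 (R 4.3.3, statmod 1.5.0; mean-variance trend, robust) over the genes whose mean exceeded the 25th percentile of its table, and called at a two-sided Benjamini-Hochberg adjusted p under 0.05. Fold changes are on the log2 scale with that prior. Difference tests used 1 fit over 4 groups and genes tested in both tables. Ratios and shares of reads were compared by exact two-sided permutation tests (scipy 1.17.1). The fits were tested on simulated data. The genes, lists and tests were chosen with earlier results of these data known. The text names all 10 genes in every comparison, from each list and comparison the called genes with the 2 largest absolute log2 fold changes, and Mid1ip1, Mlx, Nr1h2, Scap, Insig1, Insig2, Srebf2, Pklr and Scd1 in the 3 group comparisons; some genes this rule covers are not reported here. The genes most alike are the 5 with the highest Pearson r to the members' mean profile. Fabp4, Gss, Ggt7 and marker genes were named after their values were seen. Alternatives were total-read scaling, quantile normalization, no filter on low values, a prior of 2 reads, voom on the recovered reads, the replicate number as a block and leaving out each library. At these depths 3 reads in a library are at most 0.200 CPM, and such limits cover counting error only. Gene starts are the deposited ones plus 1.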

Additional observations from a re-analysis of the deposited data

Results flagged for a closer look

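In 60 combinations of gene and group, 5 had a library set apart from the rest of its group by Dixon's criterion, which chance meets in about 1 group of 20. Srebf1 in CD replicate 1 was at 8.23 log2 CPM (300.2 CPM, against 106 to 114 in the other CD livers). Fasn in 4-week control replicate 1 was at 8.20 log2 CPM (295 CPM, against 1032 to 1366 in the others), and Acacb in the same liver at 5.78 (54.9 CPM, against 149 to 200.5). Acss2 in 4-week STAM replicate 1 was at 7.88 (236 CPM, against 119.7 to 141 in the others). Acacb in MCD replicate 4 was at 5.72 (52.6 CPM, against 28.5 to 30.7).

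The difference tests, on the log2 scale, singled out 8 results. The STAM effect at 10 weeks was lower than that at 4 weeks for Nr1h3 (−0.39). The MCD effect was lower than the 10-week STAM effect for Fasn (−1.93), Acaca (−1.06), Acacb (−2.16), Acly (−1.38), Acss2 (−1.23), Me1 (−1.53) and Thrsp (−3.75).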

How the results depend on the processing

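Of the calls on the 10 genes, 6 of 8 in the MCD comparison, 1 of 1 at 4 weeks, 2 of 4 at 10 weeks, 0 of 1 for the age difference and 5 of 7 for the model difference passed under every alternative run. The deviations of all 14 same-numbered pairs correlated negatively (−0.415 to −0.0094), while pairs of different number had either sign. These values cannot tell whether the replicate numbers pair the samples or mark a shared step of processing. With the number as a block, 848 genes were called at 4 weeks (1500 without it). The age difference then called 0 of the 10 genes lower, and 1156 of all 15022 genes. The model difference of Acly (−1.38) had an adjusted p of 0.0589 with the block. Leaving out libraries in turn gave 982 (without STAM replicate 1) to 1821 called genes at 4 weeks, 1 to 2 of the 10 genes lower at 4 weeks, 1 to 2 higher at 10 weeks, and 1 to 2 lower and 0 to 1 higher for the age difference. Total-read scaling gave 1 lower and 2 higher of the 10 genes at 10 weeks, where it called 953 of all 15312 genes lower and 7019 higher. For the age difference it gave 0 lower and 1 higher, with 539 of all 15022 genes lower and 2898 higher. Quantile normalization gave 2 higher at 10 weeks (2892 of all genes) and 0 lower for the age difference (1254 of all genes). The causes were not tested.

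Signs turned for genes short of the threshold, except that Pklr (0.11) and Dgat2 (0.13) in MCD livers, called lower with the deposited scaling, turned under quantile normalization and that Mlx passed as higher with total-read scaling (adjusted p = 0.0183). With total-read scaling, MCD values were 0.20 for Nr1h3, 0.34 for Mlx, 0.33 for Nr1h2 and 0.12 for Mid1ip1; 4-week values were 0.053 for Fasn and 0.013 for Nr1h2; 10-week values were 0.14 for Acly and 0.061 for Srebf2; age differences were 0.14 for Acss2 and 0.053 for Me1. With quantile normalization, Mlx had 0.012 in MCD livers, Acly 0.083 at 10 weeks, and Acss2 0.029 and Me1 0.0039 for the age difference. Leaving out libraries spanned 0 for Fasn (−0.42 to 0.13), Acaca (−0.025 to 0.22), Nr1h3 (−0.021 to 0.045) and Scd1 (−0.84 to 0.022) at 4 weeks, Acacb (−0.042 to 0.64) and Insig2 (−0.075 to 0.17) at 10 weeks, Acly (−0.063 to 0.42) and Acss2 (−0.27 to 0.30) for the age difference, Mlxipl (−0.029 to 0.14) for the model difference, and Mlx (−0.14 to 0.019) and Nr1h2 (−0.27 to 0.030) in MCD livers. Depth adds most to the spread of genes with few reads, and the lowest count of any of the 10 genes in a library was 288 reads.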
